A study of Mus musculus with 2 samples.

Results

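DNase I footprints that lay outside every called peak were described in 2 spleen libraries. A footprint was a member if it overlapped no peak of either deposited peak list of its own library by 1 base. The members were thus chosen by their position relative to the peaks, and their lying outside peaks is not a finding. In replicate 1 they were 13580 of 133725 footprints, or 10.2%, and in replicate 2 34036 of 246700, or 13.8%. The mean share was 12.0% ± 2.57 (SD, n = 2), and the members of both libraries came to 47616 of 380425 footprints.

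In DNase-seq the nuclease DNase I cuts nuclear DNA where chromatin is open, and sequencing locates the cuts. A DNA-bound protein shields the bases beneath it from the enzyme, so a short dip in cutting within an open region, a footprint, is read as a sign of an occupied site. Footprints can only be called where cuts are frequent. Spleen is a lymphoid organ in which B cells, T cells, macrophages and maturing red cells are mixed, so each library is an average over cell types. Open regions are typically called as peaks around the promoters, enhancers and CTCF sites of such cells.

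Both libraries came from the spleen of female B6CASTF1/J mice, a first-generation hybrid of C57BL/6 and CAST, at an age of 36 days. No treatment was named, and the 2 libraries formed 1 group of biological replicates. The labels give them different biosamples and differently numbered females but the same donor entry, so their spread may be partly technical. With 1 group of 2 libraries no comparison can be tested: the smallest two-sided p of an exact sign-flip permutation test is 0.5. Differences are therefore given in each library side by side, and Wilson 95% intervals cover counting error only, since neighbouring footprints are not independent. Total read depth is unknown. The authors' peak signals below 500 steps were whole multiples of a fixed step, within 0.05 step, and this step was 2.06 times as large in replicate 1. If a step stands for 1 count, replicate 2 was the deeper library.

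The joined peaks of both lists numbered 61053 in replicate 1 and 89181 in replicate 2. The deposited cut rate track lists runs of bases with a false discovery rate (FDR) under 0.05. Touching runs were joined into open stretches, of which there were 102246 and 145727. Peaks covered only a part of these stretches: 42.6% of the stretch bases in replicate 1 and 40.5% in replicate 2 lay outside peaks. The classes compared are the members, all footprints that overlapped a peak, and those in-peak footprints that lay in a stretch holding a member. The last class, with 32171 and 67858 footprints, shares its stretches with the members.

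The sequences of some members are shown to give a sense of what is protected there. They are reference sequence of the GRCm38.p6 assembly, forward strand, with the footprint in capitals and its flanks in lower case. The mice are hybrids, and the CAST allele may differ. First come the widest members with identical coordinates in both libraries and no soft-masked base, because both libraries delimited them alike. All of them lay at promoters. The third widest, of 44 bases next to the start site of Hlcs, is not printed.
Crocc, chr4:141060798-141060856: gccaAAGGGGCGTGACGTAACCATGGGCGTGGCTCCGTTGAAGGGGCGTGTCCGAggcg
Cdc34, chr10:79681708-79681767: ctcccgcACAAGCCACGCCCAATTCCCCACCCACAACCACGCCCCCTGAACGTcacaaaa
Sec23a, chr12:59012156-59012215: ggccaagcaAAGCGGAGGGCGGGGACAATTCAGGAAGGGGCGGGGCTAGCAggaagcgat
Slain2, chr5:72914182-72914240: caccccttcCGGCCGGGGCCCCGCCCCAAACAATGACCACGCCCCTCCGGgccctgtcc
These footprints were 51, 46, 42 and 41 bases wide and lay 21, 40, 24 and 29 bases from a peak. Their distances upstream of the named start site were 277, 457, 169 and 93 bases. Those of Sec23a and Slain2 hold the GC box GGGGCGGGG on one strand or the other, the site of SP and KLF factors.

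Next are members with the consensus of a known factor in the footprint widened by 5 bases on each side. They were outside peaks in both libraries, at the largest distance from a peak, summed over the libraries. The CTCF site near Ccdc59, 252 and 260 bases from a peak, is shown as delimited in replicate 1 and then in replicate 2. The YY1 site at the start of Fars2, 201 bases from a peak, is shown as delimited in replicate 2, where the site crosses the edge of the footprint. The NRF1 site at Cactin, the ETS site at Vps51 and the GATA site near Sec61a2 are as delimited in replicate 1, at 247, 173 and 131 bases from a peak. The NRF1 and ETS sites also cross the edge of the footprint, and most of the ETS site lies in the flank.
CTCF, Ccdc59, replicate 1: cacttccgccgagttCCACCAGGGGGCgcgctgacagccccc
CTCF, Ccdc59, replicate 2: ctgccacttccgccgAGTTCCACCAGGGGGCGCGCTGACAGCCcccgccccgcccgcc
YY1, Fars2: caagaTGGCGGCGCCCAGCGCGCCCagcgt
NRF1, Cactin: acgcgcgCGCATGCGCGGCGCGGgccgcca
ETS, Vps51: acttcCGGGTCGAAGTGCGCCCCAttgag
GATA, Sec61a2: aagctgttttcTAGATAAGgtttcctggtc
The Ccdc59 footprint was 12 bases wide in replicate 1 and 28 in replicate 2, so the same site was delimited differently. Members among the 3 farthest from any peak in each library are shown for contrast, since 5 of these 6 were of the smallest width. The one near Rabif in replicate 1, the second farthest there, was 7 bases wide and 471 bases from a peak. The one near Dazap2 in replicate 2, the farthest of all, was 10 bases wide and 519 bases from a peak, and a GC box crosses its edge.
Rabif, replicate 1: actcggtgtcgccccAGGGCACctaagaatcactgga
Dazap2, replicate 2: tcaggacaggGGGCGGGGCGcggggacacg

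Members lay close to the edges of peaks. Their median distance to the nearest peak of the same library was 28 bases in replicate 1 and 30 in replicate 2, a mean of 29 ± 1.41 (SD, n = 2). Within 50 bases of a peak lay 68.7% and 68.1% of them, and within 150 bases 92.9% and 93.0%. The farthest lay 477 and 519 bases away, and none lay beyond that. Only 965 and 2384 members were more than 150 bases from a peak. At the threshold itself the classes ran into each other. Members with a gap of 0 to 2 bases numbered 1061 and 2342, with median widths of 9 and 10 bases, and footprints that overlapped a peak by 1 to 3 bases numbered 1084 and 2439, with the same median widths.

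Nearly all members were in a listed open stretch, 99.7% in replicate 1 and 99.6% in replicate 2. Runs listed at an FDR of 0.001 or less covered 91.6% and 91.3% of them, against 88.0% and 81.6% of in-peak footprints and 98.7% and 98.0% of in-peak footprints of the same stretches. A peak flanked the member on 1 side of its stretch in 77.0% and 74.5% of cases, and on both sides in 21.02% and 23.5%. Just 222 and 569 members lay in a stretch without any peak, and 45 and 125 in no stretch.

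The stretches with members were long. Their median length, counted once per member, was 887 bases in replicate 1 and 884 in replicate 2, against 437 and 343 for in-peak footprints. Stretches with at least 1 member numbered 7786, or 7.61% of all, and 15524, or 10.7%. Of these 60.3% and 49.2% held a single member, and 319 and 1469 held 5 or more. In replicate 1 the most crowded stretch held 14 members and 1 in-peak footprint. It spans 1156 bases at the start of Prkra, on chromosome 2 from 76647610 to 76648765, and Prkra encodes an activator of a kinase that senses double-stranded RNA. In replicate 2 a stretch at the glucocorticoid receptor gene Nr3c1 held 16 members and 22 in-peak footprints. A stretch of 1728 bases at Ctcf itself, on chromosome 8 from 105635869 to 105637596, held 15 members and 5 in-peak footprints in that library.

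The density of footprints fell across the edge of a peak. More than 100 bases inside an edge it was 11.5 per kb in replicate 1 and 14.1 in replicate 2. From 51 to 100 bases inside there were 13.3 and 15.2 footprint midpoints per kb, the highest of the bins, and in the last 25 bases before the edge 5.22 and 7.94. In the first 25 bases outside, from 0 to 24, the density was 3.86 and 6.31 per kb of listed stretch. It was 1.35 and 2.81 per kb between 50 and 99 bases, and 0.0656 and 0.241 between 300 and 599 bases. The decline was gradual across the edge in both libraries, with no break at the boundary beyond the steps between neighbouring bins. Taken over all stretch bases outside peaks, members numbered 1.57 and 3.01 per kb, against 10.2 and 12.6 in-peak footprints per kb of peak. In stretches without a peak there were 0.815 and 1.79 per kb.

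**Figure D1:**
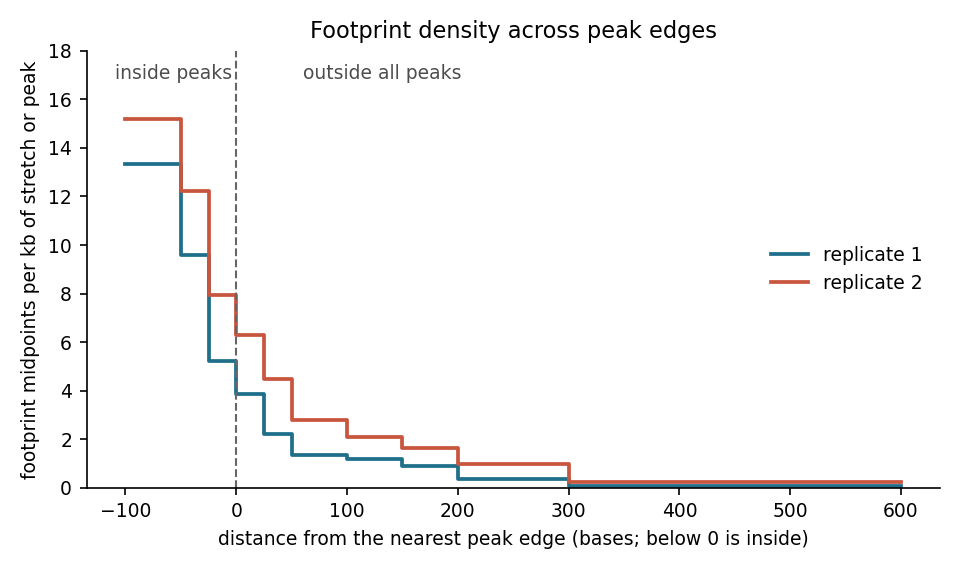
Footprint midpoints per kb of peak (inside) or of listed open stretch (outside) against the distance from the nearest peak edge in bases, one line per replicate. Density falls from 13.3 and 15.2 per kb at 51 to 100 bases inside to 3.86 and 6.31 in the first 25 bases outside.

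The peaks beside members were strong ones. The signal the authors gave to the nearest peak had a median of 5.88 in replicate 1 and 6.53 in replicate 2, against 1.96 and 1.23 for the peaks of in-peak footprints. For in-peak footprints of the same stretches it was 6.28 and 5.29, above members in replicate 1 and below them in replicate 2. When joined peaks were ranked by that signal within each library, the strongest 10% were nearest to 55.7% and 60.6% of all members. Of these strongest peaks 62.5% in replicate 1 and 84.5% in replicate 2 were the nearest peak of at least 1 member. Among the weakest 10% the shares were 2.31% and 6.41%. Most of the strongest peaks thus had a footprint on their shoulder, while few of the weakest did.

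**Figure D2:**
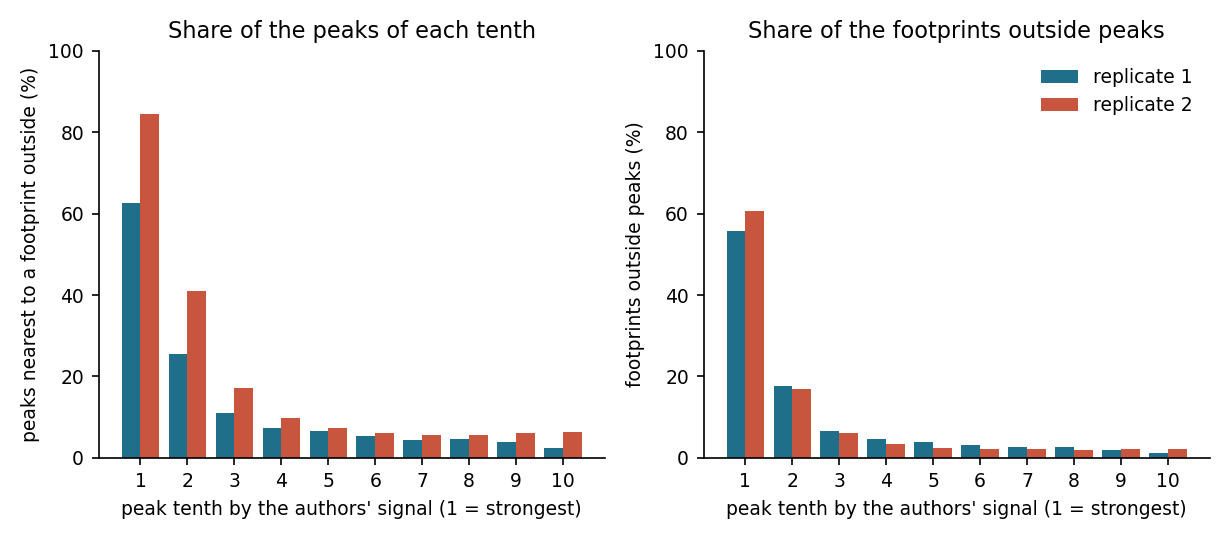
Left, the percentage of joined peaks in each of 10 classes by the authors' signal, from strongest to weakest, that are the nearest peak of at least 1 footprint outside peaks; right, the percentage of footprints outside peaks whose nearest peak is in that class, as bars per replicate. The strongest class stands apart, at 62.5% and 84.5% on the left and 55.7% and 60.6% on the right.

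Members were narrow. Their median width was 9 bases in both libraries, against 10 for in-peak footprints and 13 for in-peak footprints of the same stretches. The smallest width listed, 7 bases, held 34.6% of members in replicate 1 and 30.6% in replicate 2. Among in-peak footprints it held 24.7% and 25.3%, and in those of the same stretches 17.6% and 16.9%. Widths of 20 bases or more were found for 8.91% (95% Wilson interval 8.44 to 9.40) and 12.4% (12.0 to 12.7) of members. The corresponding share was 20.8% and 19.9% in peaks, and 32.4% and 33.1% in peaks of the same stretches. The widest members measured 55 and 64 bases. Distance from the peak made little difference, since the median stayed between 8 and 10 bases from 0 to 999 bases away.

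**Figure D3:**
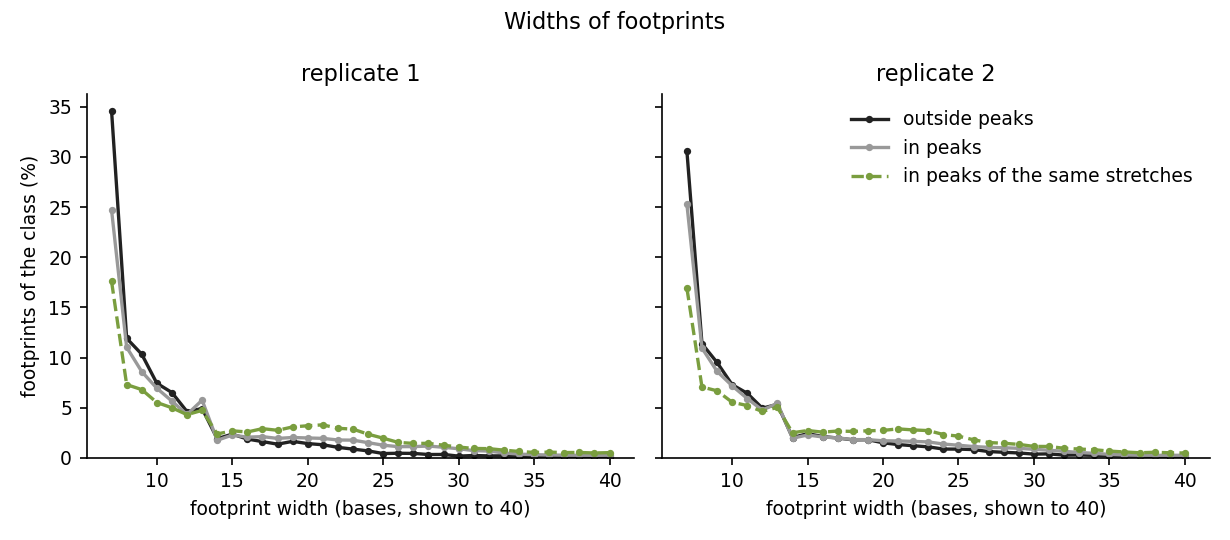
Percentage of footprints at each width from 7 to 40 bases for footprints outside peaks, in peaks, and in peaks of the same stretches, one panel per replicate. The line of footprints outside peaks starts highest, at 34.6% and 30.6% for 7 bases, and runs lowest above 20 bases.

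Most members were at promoters. Within 1 kb of a start site of a protein-coding gene lay 71.8% (71.1 to 72.6) of members in replicate 1 and 67.6% (67.1 to 68.1) in replicate 2, or 69.7% ± 2.98 (SD, n = 2). In-peak footprints were there in 45.2% and 33.6% of cases. Within the same stretches the in-peak shares were 78.8% and 66.9%, above that of members in replicate 1 and slightly below it in replicate 2. Of the remaining members 1.56% and 1.88% were exonic by their midpoint, 11.7% and 13.8% intronic, and 14.9% and 16.7% intergenic. The share at promoters rose with the distance from the peak. It was 67.9% and 59.8% at 0 to 24 bases and 86.2% and 82.9% at 150 bases or more.

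Around start sites the distribution of members had an upstream and a downstream maximum with a dip between them. Members lie outside peaks by rule, so this shape is not independent of how they were chosen. Upstream, the bin from 150 to 101 bases before the start held 6.64% of members in replicate 1, and that from 200 to 151 bases held 5.56% in replicate 2. From 100 to 51 bases upstream the share dropped to 4.89% and 3.41%. In the last 50 bases before the start it was 7.37% and 4.61%. The downstream maximum was 9.21% from 0 to 49 bases downstream in replicate 1 and 9.11% from 50 to 99 bases downstream in replicate 2. In-peak footprints had a single summit in the last 50 bases before the start, with 9.47% and 6.00%, where 16.7% and 13.1% of those of the same stretches lay. Downstream of the start lay 42.5% and 48.7% of the members at promoters, against 36.1% and 40.3% of in-peak footprints at promoters.

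**Figure D4:**
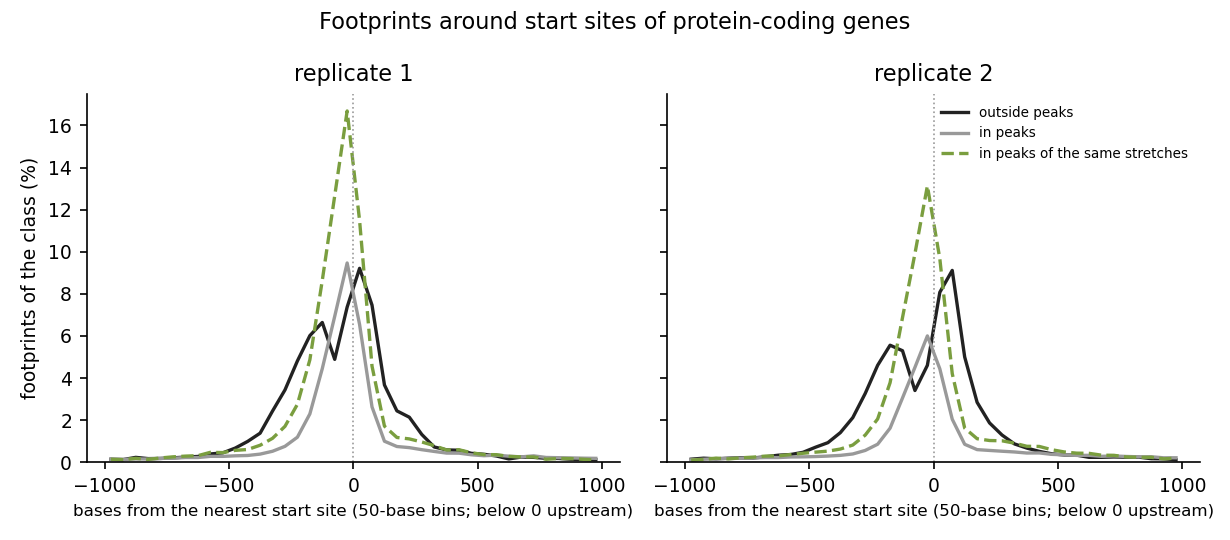
Percentage of all footprints of a class in each 50-base bin around the nearest start site of a protein-coding gene, with upstream below 0, one panel per replicate. Footprints outside peaks show an upstream and a downstream maximum with a dip from 100 to 51 bases upstream, whereas footprints in peaks have 1 summit just upstream of the start.

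By gene, 5620 of 21938 protein-coding genes had a member at a promoter in replicate 1 and 8890 in replicate 2, and 5119 had one in both. Nearly all of them also had an in-peak footprint at a promoter, 5580 and 8842 genes. Read the other way, 46.7% and 66.9% of genes with an in-peak footprint at a promoter also had one outside peaks there. A member at a promoter with no in-peak footprint there was found for 40 and 48 genes.

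The median GC content of members was 68.4% in replicate 1 and 66.7% in replicate 2, against 62.5% and 60.7% in peaks and 71.4% and 68.4% in peaks of the same stretches. At promoters the medians of both classes were 71.4% in each library. A CpG was present in 54.6% and 54.0% of members and in 73.9% and 67.6% of the wider in-peak footprints of the same stretches.

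Repeats were less frequent in members than in windows nearby. At least 50% of the bases were soft-masked, the reference's mark for repeats, in 11.6% (11.05 to 12.1) of members in replicate 1 and 11.4% (11.1 to 11.8) in replicate 2. In-peak footprints had 9.59% and 11.3%, and those of the same stretches 6.67% and 8.08%. Windows of the same width 1 kb to the left held 22.6% and 22.03%, and 36.4% of all reference bases are soft-masked. Simple tandem repeats made up 1.22% and 0.961% of members against 0.420% and 0.416% of in-peak footprints. In these a unit of up to 6 bases filled the footprint widened by 5 bases on each side. Among soft-masked members 10.2% and 8.15% were such tandem letters. The class of repeat was not analysed here.

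What the other library held at the same place did not enter the choice of members. A peak of the other library covered 32.1% of members of replicate 1 and 23.3% of those of replicate 2. In-peak footprints were in a peak of the other library in 93.1% and 71.5% of cases, and windows 1 kb to the left of members in 9.32% and 7.93%. The open stretch itself was nearly always found again: 98.2% and 90.01% of members were in a listed stretch of the other library. Most members therefore lay in chromatin that both libraries listed as cut, beyond the reach of the peaks of either.

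A footprint of the other library, overlapping by at least 50% of the shorter one, was found at 63.0% (62.2 to 63.8) of members of replicate 1. This was close to the 63.8% of in-peak footprints of that library and below the 78.0% of those of the same stretches. In replicate 2 23.5% (23.01 to 23.9) of members had a counterpart, against 34.0% in peaks and 57.6% in peaks of the same stretches. Windows moved 1 kb to the left of members had one in 1.598% and 0.864%. The 2 libraries differ in their number of footprints, so the shares of replicate 2 have fewer possible partners. Of all members 5536 in replicate 1 had a counterpart that was itself outside peaks, 40.8% of members, and 15.3% of members in replicate 2 did. Identical start and end outside peaks in both libraries were found for 198.

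Sharing rose with width. Members of replicate 1 were found again in 44.7% of cases at 7 bases, in 72.0% at 10 to 13 bases and in 98.8% at 20 bases or more. In replicate 2 these shares were 6.91%, 19.2% and 75.4%. In-peak footprints of the same widths had 37.0%, 63.3% and 99.02% in replicate 1, and 9.80%, 23.8% and 86.6% in replicate 2. At equal width members of replicate 1 up to 13 bases were thus found again more often than in-peak footprints, and members of replicate 2 less often. In-peak footprints of the same stretches had 45.1% at 7 bases and 73.6% at 10 to 13 bases in replicate 1, slightly above members, and 18.9% and 41.9% in replicate 2, well above the 6.91% and 19.2% of members. Members in stretches without a peak were rarely found again. Only 20 of 222 (9.01%) and 8 of 569 (1.41%) of them had a counterpart, and 31.5% and 31.8% lay at promoters. Their stretches had median lengths of 45 and 40 bases.

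**Figure D5:**
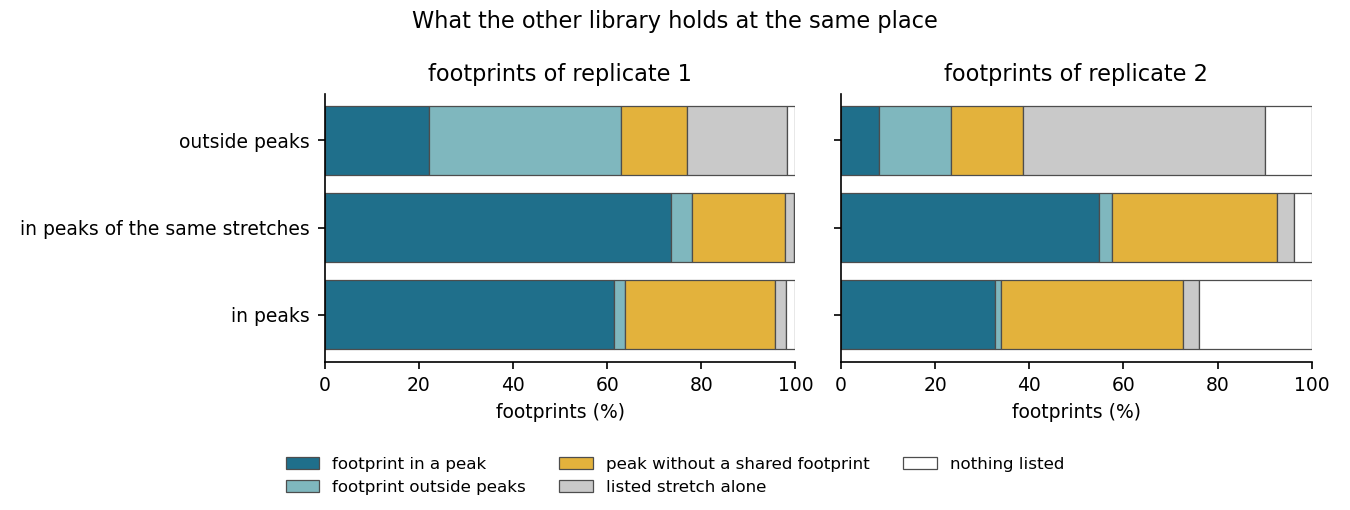
State of the other library at footprints outside peaks, in peaks of the same stretches, and in all peaks, as stacked percentages for each replicate. For footprints outside peaks a counterpart in a peak makes up 22.2% and 8.14%, and a counterpart outside peaks 40.8% and 15.3%.

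Consensus sites of 22 factors or families were searched on both strands in each footprint widened by 5 bases on each side. Any of them was found in 6.97% of members in replicate 1 and 5.64% in replicate 2, against 13.6% and 11.9% of in-peak footprints. For 18 of the 22 patterns the share was lower outside than in peaks in both libraries, and for YY1 and SP/KLF it was higher. Against in-peak footprints of the same stretches 16 were lower in both libraries and 0 were higher. For SP/KLF the intervals of members, 2.63 to 3.20 and 1.93 to 2.23, included the shares in all peaks, 2.83% and 1.99%. Among footprints at promoters SP/KLF was lower in members, at 3.58% and 2.62% against 5.42% and 4.77% in peaks. YY1 was there in 0.164% and 0.174% of members against 0.171% and 0.168% in peaks. A narrower footprint offers fewer bases to search, so for the sites of CTCF, SP/KLF, YY1, ETS, NRF1 and NFY shares at fixed width are given as well. A match is a description of letters and does not show that the factor was bound.

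CTCF, the zinc finger protein that anchors chromatin loops, had its site less often in members than in peaks. Its consensus was found in 60 members (0.442%) of replicate 1 and 105 (0.308%) of replicate 2, against 4.48% and 3.34% of in-peak footprints. The pattern read backwards was found in 2 and 4 members, and windows 1 kb away held the site in 0.0884% and 0.107%. At widths of 20 bases or more the share was 2.23% (1.54 to 3.23) and 1.50% (1.17 to 1.91) for members, 16.1% and 13.5% in peaks, and 4.95% and 4.48% in peaks of the same stretches. At widths of 10 to 19 bases members had 0.538% and 0.203% and in-peak footprints of the same stretches 0.536% and 0.277%, with intervals that overlapped. The deficit against the same stretches was thus seen among wide footprints. Of the CTCF members 29 were outside peaks with the site in both libraries.

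SP/KLF factors bind the GC boxes of promoters. The box GGGGCGGGG, which reads the same backwards and so has no backward control, was the most frequent match, in 2.90% and 2.07% of members. Windows 1 kb away had 0.103% and 0.137%. In peaks the share was 2.83% and 1.99%, and in peaks of the same stretches 5.51% and 4.34%. At widths of 10 to 19 bases members had 3.83% and 2.31% against 3.82% and 2.59% in the same stretches, with intervals that overlapped. At 20 bases or more they had 12.2% and 7.25% (6.51 to 8.08 in replicate 2) against 12.1% and 9.87% (9.49 to 10.3 in replicate 2), so members of replicate 2 were lower there. At 7 to 9 bases they had 0.881% and 0.667% against 0.667% and 0.437%.

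YY1 is a zinc finger factor whose site is often found just downstream of start sites. Its consensus was present in 16 members (0.118%) of replicate 1 and 41 (0.120%) of replicate 2, against 0.0824% and 0.0611% in peaks and 0.168% and 0.162% in peaks of the same stretches. The interval for members of replicate 1, 0.0725 to 0.191, included the share in peaks, and that of replicate 2, 0.0888 to 0.163, did not. At promoters 15 of 16 and 33 of 40 of these sites pointed in the direction of the gene. The footprints with a site had a median position 20 and 19 bases downstream of the start, within 50 bases of it. At widths of 10 to 19 bases the share was 0.258% and 0.171% for members, against 0.259% and 0.195% in the same stretches, with intervals that overlapped. In-peak sites at promoters pointed that way in 80.6% and 81.7% of cases, at a median of 23 and 18 bases. Of the YY1 members 13 were outside peaks with the site in both libraries.

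Over all widths the sites of 3 other promoter factors were scarcer in members than in peaks of the same stretches. The ETS family consensus CCGGAAGT was in 0.471% and 0.267% of members, against 1.12% of in-peak footprints of the same stretches in both libraries. At widths of 10 to 19 bases the shares were 0.559% (0.382 to 0.818) and 0.358% (0.267 to 0.480) against 1.12% and 1.03%. NRF1, a regulator of genes for mitochondria, had its site in 0.228% and 0.0970% of members and in 0.584% and 0.423% in the same stretches. At widths of 10 to 19 bases these shares were 0.258% and 0.106% against 0.268% and 0.0733%, with intervals that overlapped. At 20 bases or more the NRF1 shares were 1.32% and 0.428% against 1.50% and 1.19%. There the intervals overlapped in replicate 1 but not in replicate 2, at 0.271 to 0.676 for members and 1.06 to 1.34 in the same stretches. For NFY, which binds CCAAT boxes, the pattern CCAATCA was in 0.361% and 0.261% of members against 1.41% and 1.17%, and at widths of 10 to 19 bases in 0.409% and 0.333% against 1.50% and 1.10%. Among factors of blood cells, the site of PU.1, GAGGAAGT, was in 0.103% and 0.109% of members, with intervals that included the 0.114% and 0.103% of windows 1 kb away. In peaks it was in 0.40035% and 0.488%, and in peaks of the same stretches in 0.199% and 0.348%. Members at promoters had it in 0.0308% and 0.0695% against 0.0923% and 0.106% of their windows. Members away from promoters had it in 0.288% and 0.191% against 0.170% and 0.0953%. There the interval of replicate 2, 0.125 to 0.291, lay above the windows, while that of replicate 1, 0.161 to 0.514, included them. The GATA site AGATAAG was in 12 members of replicate 1 and 35 of replicate 2. At 0.0884% and 0.103% its share lay below the 0.214% and 0.201% of windows 1 kb away. In-peak footprints of the same stretches had it in 0.0653% and 0.106%, likewise below their own windows, at 0.277% and 0.250%. Over all in-peak footprints the GATA share was 0.152% and 0.329%. The deficit of members against windows was seen at promoters, with 0.0513% and 0.0521% against 0.226% and 0.215%. Away from promoters members had the GATA site in 0.183% and 0.209% against 0.183% and 0.172% of windows. EBF, the early B cell factor, had its pattern in 0.140% and 0.150% of members against 0.0295% and 0.0338% of such windows and 0.220% and 0.302% in peaks. Its pattern read backwards was in 9 and 19 members, against 19 and 51 with the pattern itself. Sites of REST were found in 0 members, which allows up to 0.0221% in replicate 1 and 0.00881% in replicate 2. In peaks there were 18 and 39, or 0.0150% and 0.0183%, so in replicate 1 the share in peaks was itself below that limit.

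Members were then counted at gene loci, taken as the gene body with 10 kb on either side. Neighbouring loci overlap, so a member can count for several genes. At least 1 member was found at 8398 of 21938 protein-coding loci in replicate 1, or 38.3%, and at 12067 in replicate 2, or 55.0%. The median locus held 0 and 1. The lists below are markers of cell types and a set of housekeeping genes.

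Among B cell genes 8 of 16 loci in replicate 1 and 16 of 16 in replicate 2 held a member, with medians of 0.5 and 4.5 per locus. Pax5, the factor that maintains B cell identity, had 5 members in replicate 1 and 12 in replicate 2, none of them within 1 kb of its own start sites. Cd79a, which signals for the B cell receptor, had 3 and 10, of which 0 and 4 were at its own promoter. Ebf1, an early B cell factor, had 4 and 9. The shares of the list, 50% and 100%, stood beside 38.3% and 55.0% of all loci. Of the footprints in these B cell loci, however, 5.48% and 12.6% were outside peaks, below the 11.7% and 16.7% over all loci.

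Of 15 T cell loci 8 held a member in each library. Cd3g, a chain of the T cell receptor complex, had 4 and 3, with 0 and 0 in its body or at its own promoter. Erythroid loci held a member in 5 and 8 of 14. Klf1, the factor that switches on adult globin genes, had 3 and 11 members, of which 0 and 2 were in its body. At its own promoter Klf1 had 0 and 0. Nfe2, another erythroid factor, had 1 and 12, of which 0 and 3 were in its body. Macrophage and monocyte loci held one in 6 and 8 of 15. Cx3cr1, a chemokine receptor, had 5 and 15 members, of which 0 and 1 were at its own promoter. Its annotated model spans 0.168 Mb and held 4 and 13 of these members. Axl, a receptor kinase in the uptake of dying cells, had 7 and 8. All of those at Axl were in the flanks, with 0 and 0 in its body or at its own promoter. Beside the shares of all loci these lists ranged from slightly below to above in replicate 1, and were close to them in replicate 2.

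The counts of the next lists stand beside the 38.3% and 55.0% of all loci that held a member. Neutrophil loci held a member in 1 and 2 of 12, NK cell loci in 1 and 2 of 10, and stromal loci in 1 and 3 of 12. The stromal members came mainly from Madcam1, an adhesion protein of the spleen's sinus lining, with 5 and 8, but 0 and 1 of these were at its own promoter. Endothelial loci held one in 2 and 8 of 10. Pecam1, an adhesion protein of endothelium, had 3 members in replicate 1 and 16 in replicate 2, where 7 were at its own promoter.

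Loci of markers of other tissues were then counted, again beside the 38.3% and 55.0% of all loci that held a member. Hepatocyte loci held one in 3 and 2 of 10, with 11 and 19 in-peak footprints in all. Members thus made up 38.9% and 26.9% of their few footprints, against 11.7% and 16.7% over all loci. Of the 7 members in hepatocyte loci in each library, 5 were at Fgb. A member was found at neuron loci in 2 and 2 of 10, kidney and pancreas loci in 2 and 5 of 11, and skeletal muscle loci in 0 and 3 of 10. Fgb, a fibrinogen chain of liver, had 5 and 5 members, all of them in the flanks and 0 in the gene body. Slc17a7, a glutamate transporter of neurons, had 6 and 5, likewise with 0 in its body. Gad1, which makes the transmitter GABA, had 3 and 5, all in its body. Housekeeping loci held one in 12 and 13 of 14. Rpl13a, a ribosomal protein gene, had 9 and 11 members, 6 and 5 of them at its own promoter. Actb, which encodes beta-actin, had 6 and 13, of which 6 and 7 were at its promoter.

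The highest counts of all genes partly followed the length of the gene model. Gm20388, whose model spans 4.43 Mb, had 73 members in replicate 1 and 171 in replicate 2, and Fgfr2, whose model spans 2.96 Mb, had 22 and 64. Shorter models with many members were Midn, at 14 and 27, Pip5k1c, a lipid kinase gene, at 15 and 24, and Sin3a, a scaffold of a histone deacetylase complex, at 12 and 28. In the gene body alone Midn had 7 and 9, Pip5k1c 2 and 6, and Sin3a 10 and 20, and the rest lay in the flanks. Agrp, a gene of hypothalamic neurons, had 9 and 32. Its annotated model on chromosome 8 from 105566698 to 105637393 reaches into the Ctcf stretch named above. Gse1 had 12 and 34, Mid1 15 and 23, Plekhg2 6 and 29, and Ccdc106 12 and 22. Of these, 10 and 32 were in the body of Gse1, 11 and 17 in that of Mid1, 1 and 5 in that of Plekhg2, and 4 and 4 in that of Ccdc106.

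By windows of 100 kb the members were densest in gene-rich sequence. The window on chromosome 11 from 69000001 to 69100000, with 7 protein-coding genes including Per1 of the circadian clock and Aurkb of cell division, held 23 members in replicate 1 and 41 in replicate 2. On chromosome 10 the window from 79900001 to 80000000, around Arid3a, a B cell factor, held 24 and 30. The windows from 80100001 to 80200000, around Midn, and from 81300001 to 81400000, around Hmg20b, held 14 and 39, and 21 and 31. On chromosome 7 the window from 25200001 to 25300000, around Erf, held 17 and 34. All 5 windows held 6 to 13 protein-coding genes.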

How the data were processed

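DNase-seq libraries of 2 spleens were used. Per the deposited readme of each library, peaks, the cut rate track and footprints were derived from its own alignments on mm10, without pooling; the aligner and callers were not given in the sources used here. Peaks carry a signal value of the authors. The deposited cut rate track gives an FDR (a q-value) per run and lists runs under 0.05, and footprints carry an FDR threshold (a q-value) of 0.01. Replicate numbers are those of the labels.

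Runs were joined with bedtools 2.31.1, and overlaps, distances and counts were computed in Python 3.11.15 with numpy 2.4.6, pandas 2.3.3 and scipy 1.17.1. These steps were checked on simulated intervals and planted sites. Genes came from the basic GENCODE annotation M21 and sequence from GRCm38.p6. Coordinates are 1-based. Overlap with a promoter (1 kb on either side of a start site) took precedence over exon, intron and intergenic midpoints. Tandem letters repeated a unit of at most 6 bases over at least 90% of the footprint widened by 5 bases on each side.

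Members, lists and patterns were chosen with earlier results of these data known. In each list the 2 genes with the most members were named, with the 10 highest of all, 5 windows, the 5 widest identical members, the farthest members and, for CTCF, ETS, NRF1 and GATA, the 2 matches farthest from a peak. A gene that this rule selects is not reported here. The YY1 example, Ebf1, crowded stretches, width classes, same-stretch comparisons and the profile around start sites were chosen after their values were seen. Patterns of under 10 letters not spelled out in the text were RUNX (TGTGGTT), E2A (CACCTG), octamer (ATGCAAAT), AP-1 (TGANTCA), CREB (TGACGTCA), NF-kB (GGGANTTCC), C/EBP (TTGCGCAA) and HNF4 (CAAAGTCCA). The longer ones, of CTCF, EBF, IRF, MEF2, NRF1, YY1, ZNF143, REST and HNF1, are given by name.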

Additional observations from a re-analysis of the deposited data

How the results depend on the processing

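The mean share of footprints outside peaks, 12.0%, was 25.7% against the shorter peak list alone, 3.87% with peaks widened by 50 bases and 0.860% with peaks widened by 150 bases. The promoter share of 69.7% was 65.1% with promoters of 500 bases, 73.1% with genes of any type and 84.6% for members over 150 bases from a peak. Repeats, at 11.5%, were at 13.8% when any soft-masked base counted and 11.3% for members over 150 bases away. The median distance of 29 bases was 157 to the shorter list and 141.5 between midpoints. A peak of the other library lay at 18.4% of members over 150 bases away, against 27.7% of all. Identical coordinates in the other library were found for 1.63% of members, against 43.2% that shared a footprint. Runs with an FDR of at most 0.001 held 91.4%. Without widening, a consensus site was found in 3.06% of members in place of 6.30%, and gene bodies alone held a member at 30.5% of genes in place of 46.6%. The other 27 settings moved these results by less than the SD of the libraries, but 20 of them left out 1 library, which by construction cannot move a mean of 2 by more, so 7 bear on stability. No paired analysis was possible because there is 1 group. Depth is unknown, and footprints of replicate 2, with 2.06 times finer signal steps, were more numerous.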

Other observations

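Footprints outside peaks were 8.01% of the footprints on the X chromosome in replicate 1 and 12.3% in replicate 2. The Y chromosome, which mice labelled female lack, was listed with 8 members among 45 footprints in replicate 1 and 1 among 56 in replicate 2. The widths had a step in both libraries: 4.92% and 5.33% of members were 13 bases wide and 1.91% and 2.02% were 14 bases wide, with a like step in peaks from 5.75% and 5.44% to 1.75% and 1.95%.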
